A study of Mus musculus with 3 samples.

Results

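Vitamin A reaches cells as retinol and acts in them as retinoic acid, and 9 mouse genes of this route were followed through 3 cell fractions of epididymal fat. They were Stra6, Rdh10, Aldh1a1, Aldh1a2, Aldh1a3, Rbp7, Crabp1, Crabp2 and Rarb, chosen by name for their place in the route, with earlier results of these data known, and every probe whose gene name on the array is one of them was read. Of the 9 genes, 8 had a probe, with 14 probes in all, out of 37325 gene names and 56605 probes on the arrays. No probe carried the name Crabp2, which was not analysed here.

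The fractions were stromal vascular cells (SVC), small proliferative adipocytes (SPA) and mature white adipocytes (MWA, called mature adipocytes in the sample record), each measured on 1 Agilent single-color array, for which 50 ng of total RNA was made into cRNA and labeled with Cy3. The source of all 3 was epididymal fat of male C57/BL mice aged 20 weeks, digested with collagenase, and the records name no transgene or treatment. A spin at 9 g for 1 s put SVC in the lower phase, and a spin of the floating cells at 226 g for 3 min left MWA afloat and SPA as the sediment. SVC and SPA were grown in DMEM to 90% confluence before RNA was taken, but the records describe none for MWA, whose title also carries another date, so culture, date and cell type cannot be told apart between MWA and the others. The fractions are sedimentation fractions and not sorted cells, and the number of animals behind each is not given in the sources used here. With 1 array per fraction there was no replicate, so no test was made and no p-value is given, and all 3 comparisons share arrays.

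Retinol circulates bound to Rbp4 and enters cells through Stra6 or related receptors. Inside the cell it is held by cellular retinol-binding proteins and oxidized to retinal by enzymes such as Rdh10. Retinal is oxidized further and irreversibly to retinoic acid by the aldehyde dehydrogenases Aldh1a1, Aldh1a2 and Aldh1a3. Retinoic acid is carried by the Crabp proteins, activates nuclear receptors (Rara, Rarb and Rarg, paired with an Rxr) and is broken down by Cyp26 enzymes, and adipose tissue is known as a store of retinyl esters and as a tissue in which retinoids affect the formation of adipocytes.

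The values below are log2 levels, that is the processed signal of a probe over the 75th percentile of all non-control spots of its array, so that 0 is the level of that percentile. Agilent Feature Extraction marked 58.6% to 61.4% of the 59305 non-control spots per array as well above background and 0 as saturated. A gene was called where its probe was well above background on the brighter array and the ratio reached 5-fold, with a lower bound in place of the ratio if the dimmer array was not well above background, the size used in the study. The adipocyte genes were higher in MWA and, for part of them, in SPA than in SVC. Adipoq, which encodes adiponectin, had no signal well above background in SVC and levels of 1.56 in SPA and 8.44 in MWA. All 13 adipocyte markers examined were called higher in MWA than in SVC, against 5.72% of all genes tested. In SPA over SVC 8 of the 13 were called higher, against 0.32% of all genes tested. Lep, which the study lists as 5-fold higher in SPA than in SVC, was 1.19-fold higher here. Macrophage, fibroblast and smooth muscle markers, given below, were also well above background in SPA. The median ratio over all genes measured on both arrays was 0.05 (log2) for SPA over SVC, -0.08 for MWA over SPA and -0.07 for MWA over SVC.

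Each gene was read at 1 probe of 60 bases, the one with the highest mean level. For the genes of the set that were well above background on every array and varied at least 5-fold, the first 30 bases of that probe are shown. They let the measured piece of RNA be found (array annotation, mm9, strand of the gene, 5′ to 3′): Rbp7 on the minus strand of chr4:148823900-148823929, Aldh1a2 on the plus strand of chr9:71143931-71143960 and Rarb on the minus strand of chr14:17263541-17263570.
Rbp7: ctcgtagaaggaacgggtgtttgtctgttt
Aldh1a2: aaccagctagctcccttcaacccacagtat
Rarb: aatgagtggttgacagactcaagtgtcggc
The Rbp7 probe shared at most 16 consecutive bases with a probe of another gene, and the Aldh1a2 and Rarb probes at most 15 and 14. Aldh1a1 and its close relative Aldh1a7 both lie on chromosome 19 and gave different patterns, so their probes were compared. In the best-matching stretch of 30 bases, which lies at chr19:20717776-20717805 (plus) for Aldh1a1 and chr19:20767580-20767609 (minus) for Aldh1a7, 15 bases were identical, and the differing bases are in capitals.
Aldh1a1: cttAaGctCtgtCccTCAGTGACtCCTtga
Aldh1a7: cttGaActAtgtAccATGCATGAtAACtga
The longest run that these probes shared was 8 bases, and no other pair among the 4 Aldh1a probes shared more than 6. The other pairs had 14 to 16 identical bases in their best stretch of 30. Probes were compared only with probes, so binding of a probe to the RNA of another gene was not tested.

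Promoters were searched for direct repeats of the half-site that retinoic acid receptors bind (AGGTCA, in which the first letter could also be G and the third also T, on both strands), with a spacer of 5 bases (DR5), 2 bases (DR2) or 1 base (DR1). RefSeq promoters of GRCm38.p6, from 250 bases before to 50 after the start, were given for 6 of the genes (10 promoters). A DR5 was present in 1 of the 10 promoters, that of Rarb, and in 0.0974% of 32851 promoters of all genes, while DR2 (0.268% of all) and DR1 (0.222% of all) were in 0 of the 10. Among 79 promoters of other genes of the route, a DR5 was present in 1, that of Cyp26a1, which encodes an enzyme that breaks down retinoic acid. A DR1 was also present in 1 of the 79, and a DR2 in 0. The DR5 repeats are shown with the half-sites in capitals. That of Rarb is at chr14:16575513-16575529 (53 to 37 bases before the start, in the direction of the gene, which is on the minus strand). That of Cyp26a1 is at chr19:37697776-37697792 (32 to 16 bases before the start, in the reverse direction, gene on the plus strand).
Rarb: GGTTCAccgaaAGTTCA
Cyp26a1: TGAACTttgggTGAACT
A match describes the letters and does not show that a receptor binds there.

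The levels of the 8 genes fell into 3 kinds of pattern. Rbp7 rose from SVC over SPA to MWA. Crabp1, Aldh1a2 and Rarb were highest in SVC, and Aldh1a1, Aldh1a3, Stra6 and Rdh10 stayed below a 5-fold ratio in every comparison. In SPA over SVC, 1 of the 8 genes was called higher (Rbp7) against 0.32% of the 22809 genes tested, and 3 were called lower (Crabp1, Aldh1a2 and Rarb) against 0.351%. In MWA over SPA, 1 was called higher (Rbp7) against 5.47% of 24102 genes, and 0 were called lower against 3.97%. In MWA over SVC, 1 was called higher (Rbp7) against 5.72% of 23597 genes, and 2 were called lower (Crabp1 and Aldh1a2) against 3.96%. The median log2 ratio of the 8 genes was -0.87 in SPA over SVC, 0.55 in MWA over SPA and -0.18 in MWA over SVC, with Crabp1 at its bound in the comparisons with MWA. In bulk RNA, fewer cells of a type and less RNA per cell cannot be told apart.

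**Figure D1:**
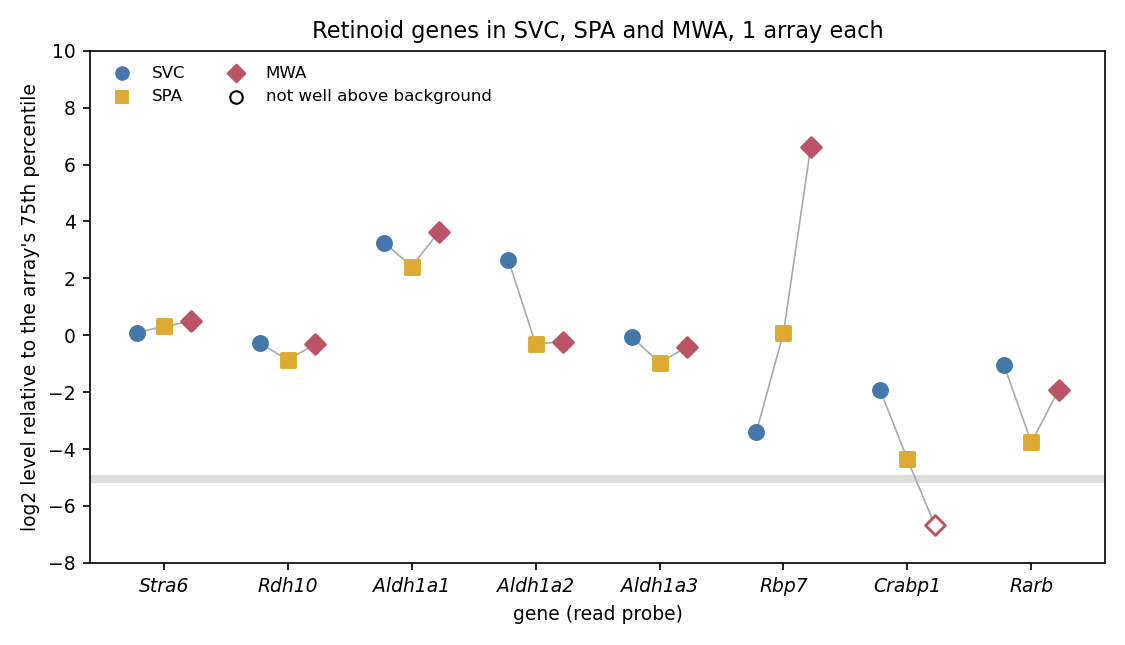
The log2 level of each of the 8 genes on the SVC, SPA and MWA arrays (y axis, log2 of the processed signal over the 75th percentile of the array), 1 array per fraction, with open symbols where the probe was not well above background and a gray band at the lowest levels well above background. Rbp7 climbs from -3.42 to 6.63, while Crabp1, Aldh1a2 and Rarb are highest in SVC.

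**Figure D2:**
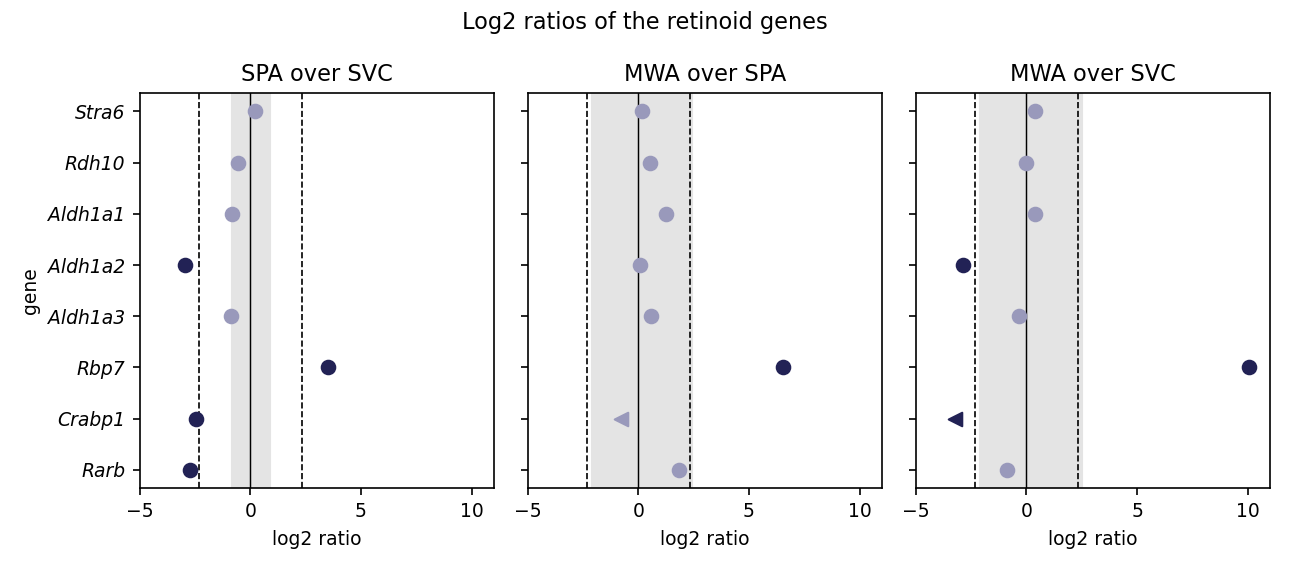
The log2 ratio of each gene in the 3 comparisons (x axis), with dashed lines at a 5-fold ratio, a gray band that leaves out the outermost 5% at each end of all genes with a ratio or a bound, dark symbols for called genes, and triangles for ratios that are bounds. Rbp7 lies beyond the dashed line on the higher side in all 3 comparisons, and Aldh1a2 lies beyond it on the lower side in both comparisons with SVC.

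Stra6, the membrane receptor that takes up retinol from Rbp4, had a level of 0.09 in SVC, 0.31 in SPA and 0.49 in MWA. Its probe is annotated over chr9:58000379-58000990 (mm9, plus strand), a span of 612 bases for 60 probe bases, so it crosses a gap in the genome alignment. The ratio was 1.16-fold for SPA over SVC, 1.13-fold for MWA over SPA and 1.32-fold for MWA over SVC. The difference between MWA and SPA was smaller than the combined signal error of 14.2% that Feature Extraction gives for the pair of spots, an error that covers the measurement on the array and not the spread between samples.

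Rdh10, the dehydrogenase that turns retinol into retinal, was read at -0.29 in SVC, -0.86 in SPA and -0.32 in MWA (chr1:16122506-16122565, mm9, plus strand). SPA was the low array, 1.49-fold below SVC and 1.46-fold below MWA, and SVC and MWA differed 1.02-fold, which is within the signal error. The local background of its spot was marked as outlying in SPA.

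The 3 enzymes that make retinoic acid from retinal had different patterns. Aldh1a1 (chr19:20717764-20717823, mm9, plus strand) had levels of 3.26 in SVC, 2.41 in SPA and 3.64 in MWA. SPA lay 1.79-fold below SVC and 2.34-fold below MWA, and the ratio of MWA over SVC was 1.31. Aldh1a2 (chr9:71143931-71143990, mm9, plus strand) had levels of 2.65 in SVC, -0.31 in SPA and -0.23 in MWA, with processed signals of 2703, 355 and 313. Only the SVC array was high. Aldh1a2 was 7.78-fold lower in SPA than in SVC (log2 -2.96) and 7.34-fold lower in MWA than in SVC (log2 -2.88), and the 1.06-fold difference between MWA and SPA was within the combined signal error of 14.2%. Aldh1a3 (chr7:73535785-73535844, mm9, minus strand) had levels of -0.08 in SVC, -0.97 in SPA and -0.42 in MWA. SVC was 1.86-fold above SPA and 1.27-fold above MWA, and MWA was 1.47-fold above SPA.

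The probes of Aldh1a3 did not show the same pattern in MWA. The probe at chr7:73553907-73553966 had levels of -2.47 in SVC, -3.37 in SPA and -5.34 in MWA, where it was not well above background. Its ratio of SPA over SVC, 1.86-fold lower, was that of the other probe, but MWA lay at least 3.44-fold below SPA and at least 6.39-fold below SVC. Its spot in SPA had an outlying local background, and its accession is not in the RefSeq table, unlike that of the brighter probe. The remaining Aldh1a3 probe, at chr7:73544841-73544900, was not well above background on any array. With the median of the probes, which includes that bound, the log2 ratio of Aldh1a3 for MWA over SPA was -0.61 or less in place of 0.55.

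Rbp7, a cytosolic retinol-binding protein, showed the largest ratios of the 8 genes. On the SVC array its level was -3.42, on the SPA array 0.09 and on the MWA array 6.63, with processed signals of 40.3, 466 and 36138. The probe, at chr4:148823870-148823929 (mm9, minus strand), was well above background on all 3 arrays, with a signal error of at most 13% on any of them. The ratio for Rbp7 was 11.3-fold for SPA over SVC (log2 3.50), 93.1-fold for MWA over SPA (log2 6.54) and 1054-fold for MWA over SVC (log2 10.04). With normexp background correction the log2 ratio was 2.34 for SPA over SVC, just past the 5-fold limit, and 8.64 for MWA over SVC. The SPA array was between the others, and on the log2 scale nearer to SVC than to MWA.

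Crabp1, which binds retinoic acid in the cytosol, was spotted 10 times per array, so its measurement error could be read directly. Its mean level was -1.93 in SVC (SD 0.08 over 10 spots), -4.36 in SPA (SD 0.18) and -6.66 in MWA (SD 0.47), and the spots are technical repeats on 1 array and not replicates of a fraction. The spots ranged from -2.05 to -1.80 in SVC, from -4.72 to -4.11 in SPA and from -7.35 to -6.03 in MWA, so the ranges of the arrays did not overlap. All 10 spots were well above background in SVC and SPA and 0 of 10 in MWA. Crabp1 was 5.41-fold lower in SPA than in SVC (log2 -2.44), just past the 5-fold limit, and with normexp background correction the log2 ratio was -1.05, short of the limit. MWA lay at least 1.72-fold below SPA and at least 9.34-fold below SVC (log2 -0.11 and -1.16 with normexp). The probe lies at chr9:54620842-54620901 (mm9, plus strand), and 1 of its 10 spots had an outlying local background in SPA and 1 in MWA. The other Crabp1 probe, at chr9:54616192-54616251, was not well above background on any array.

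Rarb, a nuclear receptor for retinoic acid whose gene is a known target of retinoic acid, had levels of -1.06 in SVC, -3.77 in SPA and -1.92 in MWA, with processed signals of 206, 32.3 and 96.5. SPA was the low array. Rarb was 6.53-fold lower in SPA than in SVC (log2 -2.71), MWA was 3.59-fold above SPA (log2 1.85) and 1.82-fold below SVC, and the signal errors were between 10.1% and 13.7%. With normexp background correction the log2 ratio of SPA over SVC was -1.49, short of the 5-fold limit. With the median of the probes it was -2.17 or less and was not called. That value is a bound, because a dimmer probe, given below, gave only a bound. With normexp the log2 ratio of MWA over SPA was 0.92. A probe close by on chromosome 14 had the same order, with -3.51 in SVC, -5.31 in SPA, where it was not well above background, and -4.45 in MWA. By that probe SPA lay at least 3.09-fold below SVC and at least 1.61-fold below MWA, and MWA lay 1.92-fold below SVC. The probes lie at chr14:17263511-17263570 and chr14:17263889-17263947 (mm9, minus strand), and the other 2 Rarb probes, at chr14:17651424-17651483 and chr14:17380078-17380137, were not well above background on any array.

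**Figure D3:**
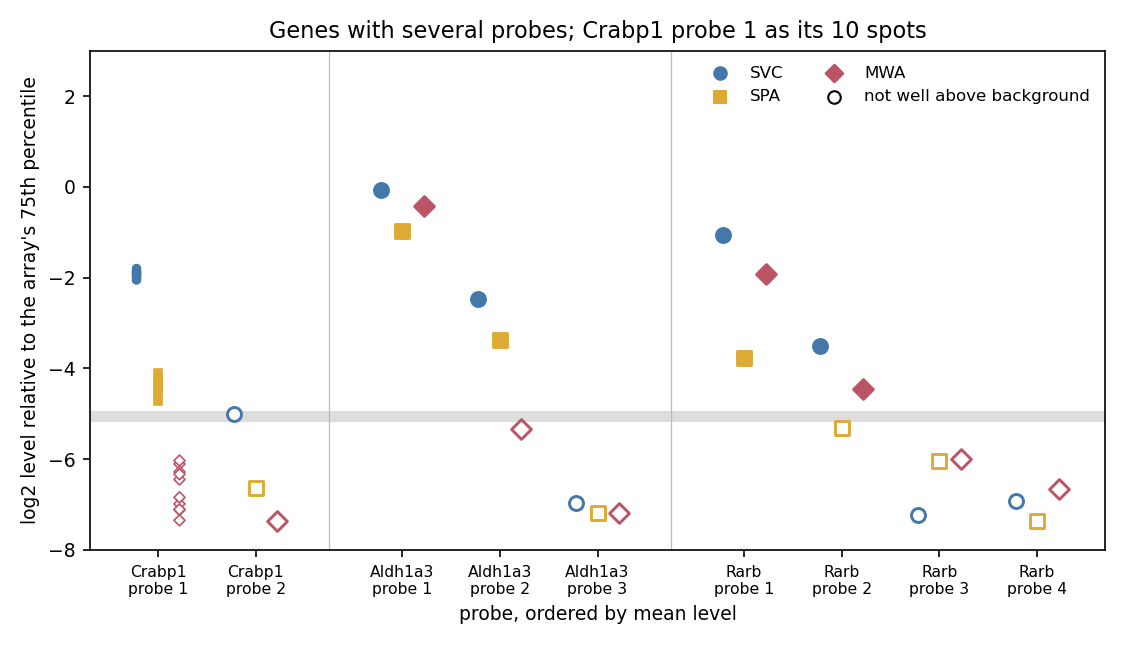
The log2 level (y axis) of every probe of Crabp1, Aldh1a3 and Rarb, the genes with several probes, on the 3 arrays, with the 10 spots of the brighter Crabp1 probe drawn singly, open symbols where a probe was not well above background and a gray band at the lowest levels well above background. The 2 brighter Rarb probes are lowest in SPA, whereas the 2 brighter Aldh1a3 probes part in MWA, at -0.42 and -5.34.

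For the genes of the set that were well above background on all 3 arrays and varied at least 5-fold, the most similar genes were found among 19971 genes by the distance between log2 levels over the 3 arrays, each centered on its mean. Nearest to Rbp7 were Adig (adipogenin), at a distance of 0.12, Gpd1 (glycerol-3-phosphate dehydrogenase) at 0.52 and Wfdc21 at 0.65. Nearest to Aldh1a2 were Bnc1 (basonuclin) at 0.11, Lrp2 (megalin, an endocytic receptor) at 0.13 and Pilrb2 at 0.13. Nearest to Rarb were Smpd3 at 0.07, Tnfrsf11b (osteoprotegerin) at 0.10 and Has2 (hyaluronan synthase) at 0.25. With 3 arrays behind each pattern, likeness describes these arrays alone.

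The wider route was read through 85 other genes with a probe, listed by role. In SPA over SVC, 1 was called higher (Adh7) and 1 lower (Lrp2) of 67 tested, with a median log2 ratio of 0.14. In MWA over SPA, 12 were called higher and 3 lower of 71 tested (median 0.46), and in MWA over SVC 16 were called higher and 3 lower of 71 (median 0.45). Of all genes tested, 0.32% were called higher and 0.351% lower in SPA over SVC. The shares were 5.47% and 3.97% in MWA over SPA, and 5.72% and 3.96% in MWA over SVC. The same shares apply to the lists that follow.

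Among 9 genes for the carriage and uptake of retinol, Rbp4, the carrier of retinol in plasma, had levels of 2.17 in SVC, 2.98 in SPA and 6.85 in MWA. MWA exceeded SPA 14.6-fold and SVC 25.6-fold. Stra6l, a receptor for Rbp4 related to Stra6, was read at -1.06 in SVC and 0.22 in SPA and was not well above background in MWA. MWA lay at least 41.4-fold below SPA and at least 17-fold below SVC, and the second probe of Stra6l was also not well above background in MWA. Lrp2, which takes up Rbp4 in other tissues, had levels of -0.35, -3.14 and -3.07 and was 6.92-fold lower in SPA and 6.61-fold lower in MWA than in SVC. Another Lrp2 probe had the same pattern, with levels of -0.79, -3.93 and -3.40, while one whose accession is not in the RefSeq table was read at -3.93, -3.70 and -3.78. A dim Lrp2 probe whose accession is in that table was read at -4.42 in SVC and -4.76 in MWA. That difference, 1.27-fold, was within the signal error, and the probe was not well above background in SPA. Scarb1 and Cd36, scavenger receptors that take up carotenoids and lipids, exceeded their SVC level 6.59-fold and 6.90-fold in MWA.

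The 7 genes for the storage and release of retinyl esters gave 0 calls in SPA over SVC, 4 higher of 6 tested in MWA over SPA (median log2 3.88) and 5 higher of 6 in MWA over SVC (median 4.94). Dgat1, which can esterify retinol, was read at -0.48 in SVC, -0.07 in SPA and 3.72 in MWA. In MWA, the lipases Lipe and Pnpla2 each exceeded their SPA level 15.6-fold, but another Lipe probe, the one whose accession is in the RefSeq table, gave 80.4-fold. The hydrolase Ces1d was well above background in MWA alone, at least 944-fold over SPA. Lpl, which also acts on retinyl esters in lipoproteins, was 10.9-fold higher in MWA than in SVC, but its probes disagreed, and those whose accession is not in the RefSeq table were not higher in MWA. Lrat, the main enzyme of retinol esterification, was not well above background on any array. Lipe and Pnpla2 are also on the list of adipocyte markers.

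Of 22 genes for the interconversion of retinol and retinal, Adh1 and Adh7, alcohol dehydrogenases that oxidize retinol, differed in opposite directions in MWA. Adh1 had levels of -0.03, 1.09 and 4.06 and MWA exceeded SPA 7.83-fold. Adh7 had levels of -4.57 in SVC and -1.49 in SPA, an 8.45-fold difference, and was not well above background in MWA, with a log2 ratio to SPA of -3.66 or less. Akr1b8, an aldo-keto reductase, was 8.09-fold below its SPA level in MWA, at 2.82 against 5.83, and its spot in SPA had an outlying local background. Dhrs3, which reduces retinal back to retinol, was not called, with levels of 5.67, 5.47 and 6.50.

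Among 4 other aldehyde-oxidizing enzymes, not all of which need act on retinal, Aldh1a7 had levels of -3.29 in SVC, -1.43 in SPA and 4.20 in MWA. Whether Aldh1a7 makes retinoic acid was not tested. MWA exceeded SPA 49.6-fold and SVC 180-fold. This differed from Aldh1a1, whose level stayed within 2.41 to 3.64, although the spots of Aldh1a7 had an outlying local background in SVC and SPA. Aox1, an aldehyde oxidase, was read at -1.12 in SVC, 0.96 in SPA and 3.28 in MWA, 21.1-fold over SVC. Of the 4 genes for the breakdown of retinoic acid, 2 were well above background on each array and 0 were called. Cyp26a1 was not well above background on any array, and Cyp26b1 had levels of -0.76, -1.85 and -1.51. The 2 genes for carotene cleavage gave 0 calls.

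**Figure D4:**
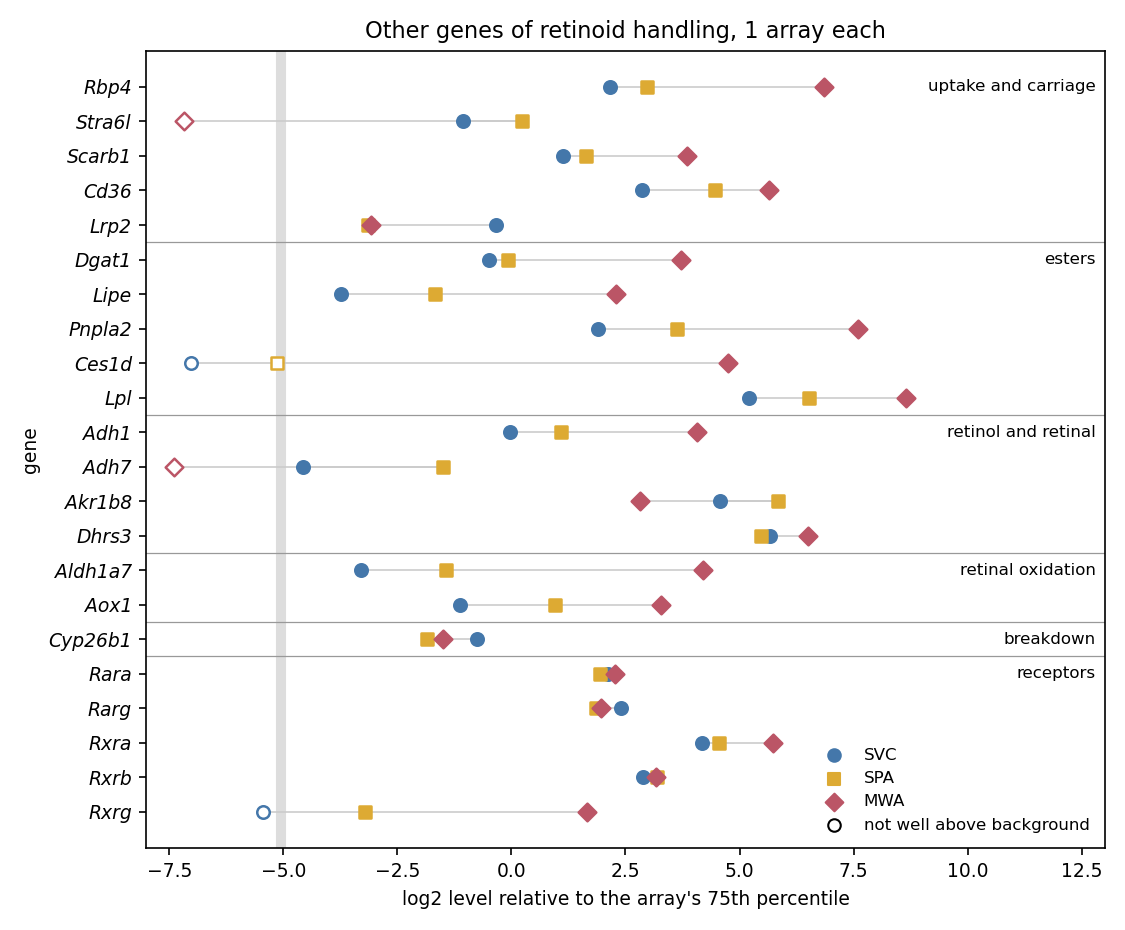
Log2 levels (x axis) of genes along the route of vitamin A on the SVC, SPA and MWA arrays, ordered by role, with open symbols where a probe was not well above background and a gray band at the lowest levels well above background. The group labeled retinal oxidation holds Aldh1a7, whose action on retinal was not tested. Among the genes whose MWA symbol lies far to the right of the others are Rbp4, Dgat1, Lipe, Pnpla2, Ces1d, Adh1, Aldh1a7 and Rxrg. The MWA symbols of Stra6l and Adh7 lie far to the left.

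The other retinoid receptors were read in the same way. In the order SVC, SPA and MWA, Rara had levels of 2.12, 1.93 and 2.27, Rarg 2.39, 1.85 and 1.97, Rxra 4.17, 4.55 and 5.73, and Rxrb 2.88, 3.20 and 3.18. The spots of Rarg had an outlying local background on all 3 arrays. Rxrg had no signal well above background in SVC and levels of -3.21 in SPA and 1.66 in MWA, a 29.2-fold difference, and MWA exceeded SVC at least 97.6-fold. Of 7 receptors and related carriers, Rxrg was the 1 that was called. Of 8 coregulators, Nrip1 was called, with a log2 ratio of 3.46 for MWA over SPA and 3.61 for MWA over SVC, with an outlying local background in SPA.

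A list of 22 genes taken here as responding to retinoic acid was also read. It leaves out Rarb and Cyp26a1, which are given above. Of these 22 genes, 0 of 17 tested were called in SPA over SVC (median log2 ratio -0.59). Of all genes tested in that comparison, 0.32% were called higher and 0.351% lower, so 0 calls among 17 is little informative. In MWA over SPA 3 of 19 were called higher and 0 lower (median 0.79), and in MWA over SVC 3 were called higher and 1 lower (median 0.20). Rarres1 exceeded its SPA level 6.82-fold in MWA, and Rarres2, which encodes the adipokine chemerin, exceeded its SVC level 14.1-fold. Tbx5 and Ucp1 were well above background in MWA alone, at least 9.24-fold and 7.51-fold over SPA, and Gata4 lay at least 5.83-fold below its SVC level in MWA.

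Markers of other cell types moved with several of these genes. Mesothelial cells line visceral fat pads and are known to express Aldh1a2. Of 12 mesothelial markers named, 11 had a probe and all 11 were well above background on every array. In SPA over SVC, 7 of the 11 were called lower and 0 higher, with a median log2 ratio of -2.56, beside -2.96 for Aldh1a2, -2.71 for Rarb and -2.44 for Crabp1. Their summed level (log2) went from 6.21 in SVC to 4.29 in SPA, against 4.96 in MWA. In MWA over SPA they were not alike, since 5 were called higher (median 1.35 over the list). Msln and Upk3b were near their SVC level in MWA, at 3.36 against 2.96 and 1.03 against 0.72, whereas Upk1b, like Aldh1a2, stayed low, at 0.41 in SPA and 0.38 in MWA against 2.97 in SVC. In MWA over SVC 4 were called lower and 0 higher, with a median of -0.38. The part of mesothelial cells in the levels of Aldh1a2, Rarb and Crabp1 was not tested.

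Endothelial cells of fat are known to express Rbp7 as well as adipocytes. All 12 endothelial markers were well above background on every array, and 0 were called in SPA over SVC (median log2 ratio 0.55), where the ratio for Rbp7 was 11.3-fold. In MWA over SPA 11 of the 12 were called higher (median 3.61) and in MWA over SVC all 12 (median 4.02), with a log2 summed level of 3.08 in SVC, 3.69 in SPA and 8.0 in MWA. Pecam1 had levels of -3.03, -2.73 and 0.01, and Cdh5 had -2.05, -0.97 and 3.27. Adipocyte markers moved with Rbp7 in every comparison, with 8 of 13 called higher in SPA over SVC (median 2.85), 11 in MWA over SPA (median 5.14) and 13 in MWA over SVC (median 7.60), and a log2 summed level of 3.94, 6.73 and 11.8. The part of either cell type in the level of Rbp7 was not tested.

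**Figure D5:**
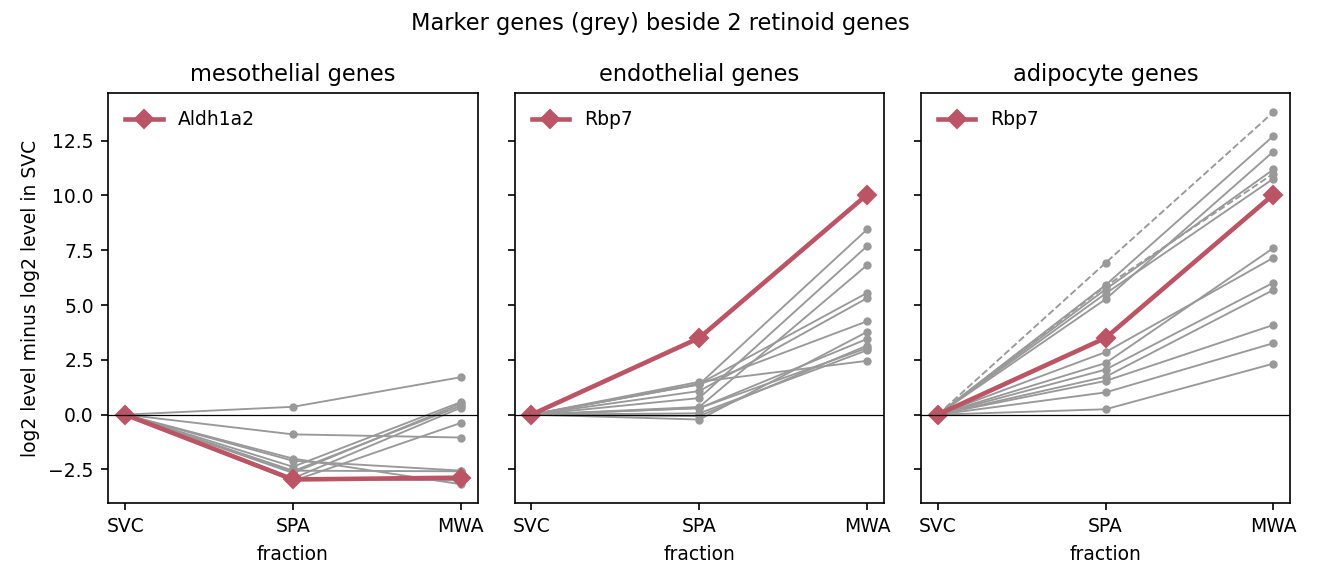
The log2 level relative to SVC (y axis) of each adipocyte, mesothelial and endothelial marker (gray lines, dashed for genes without a signal well above background in SVC) on the 3 arrays, with Aldh1a2 or Rbp7 drawn over them in red. Of the 11 mesothelial markers 10 lie lower in SPA than in SVC and they part in MWA, and the endothelial markers are highest in MWA.

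The other marker lists gave at most 1 call each in SPA over SVC. Of 12 fibroblast and adipose progenitor markers, 1 was called lower in SPA over SVC, 4 higher in MWA over SPA, and 2 higher and 1 lower in MWA over SVC. Of 8 macrophage markers, 1 was called lower in SPA over SVC, 1 higher and 1 lower in MWA over SPA, and 0 in MWA over SVC. Of 8 smooth muscle and pericyte markers, 1 was called lower in SPA over SVC, 2 in each direction in MWA over SPA and 3 in each direction in MWA over SVC. In SPA the log2 summed level was 9.27 for the macrophage markers and 8.39 for the smooth muscle and pericyte markers. It was 7.38 for the fibroblast and adipose progenitor markers, beside 6.73 for the adipocyte markers. Such sums depend on the genes and probes of a list. None of 9 epididymal epithelium markers was called, and 0, 0 and 1 of them were well above background in SVC, SPA and MWA. Of 6 red cell markers, 5 were called higher in MWA over SPA (median log2 ratio 8.66), with a log2 summed level of 9.41 in MWA against -1.37 in SVC and -1.24 in SPA.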

How the data were processed

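The authors deposited spot intensities from Agilent Feature Extraction 10.7.3.1 (a processed signal, background-subtracted and detrended), with flags for background, saturation and outliers. The authors also deposited a ratio of that signal to 1 constant per array, from which the values depart by a relative 1.37e-06 at most. The 3 arrays share 1 slide and 1 scan. Control spots and outlier spots (75, 98 and 129 on the SVC, SPA and MWA arrays) were left out, signals were scaled to the 75th percentile of each array (430, 439 and 366) and taken to log2, and spots of a probe were averaged. A probe counted as well above background where at least as many of its spots were as were not. Of several probes, the one with the highest mean over the arrays stood for the gene. Where the dimmer array was not well above background, its signal was replaced by the higher of its own and the lowest signal well above background on that array (13.9, 12.5 and 10.3), which gives a bound. The limit for a call was 5-fold, without a test. Precision is limited by there being 1 array per fraction.

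Names are those of the array. In the RefSeq gene table of GRCm38.p6, used for names, 32994 of 56605 probes had an accession, and 11 of the 14 probes of the set had the same name there and 0 another. Exon or UTR positions of the probes are not given, because no mm9 annotation was used. The genes of the set and all lists were chosen with earlier results of these data known. Named by rule were the genes of the set, genes of the route called in any comparison, the receptors Rara, Rarg, Rxra, Rxrb and Rxrg, Rbp4, Cyp26a1, Cyp26b1, Dhrs3, Adh1 and Aldh1a7, markers beside a gene they moved with, and the 3 nearest genes by pattern. 1 other gene named by the rule is not reported here. Lrat and Lep were named after their values were seen. The 9 alternatives were quantile normalization, normexp correction (offset 50), a percentile taken over probes that every array measured, the ratios deposited by the authors, no filter on dim probes, a filter that needs both arrays, the probe of largest ratio, the median probe, and removal of spots whose local background was outlying. The code for ratios was tested on simulated data. Tools were limma 3.58.1 under R 4.3.3 (normexp) and Python 3.11.15 with matplotlib 3.10.9, numpy 2.4.6 and pandas 2.3.3.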

Additional observations from a re-analysis of the deposited data

How the results depend on the processing

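Under the 9 alternatives, 207 of the log2 ratios of the 8 genes kept their side of the 5-fold limit, 4 fell below it and 1 passed it. Aldh1a3 in MWA over SPA, called under no alternative, changed direction with the median of the probes, from 0.55 to -0.61 as a bound. After normexp correction, which draws low signals together, the number of genes called in SPA over SVC fell from 4 to 2 (Rbp7 and Aldh1a2), with log2 ratios of -1.05 for Crabp1 and -1.49 for Rarb, and Crabp1 in MWA over SVC was -1.16. Under normexp Rbp7 was 2.34 in SPA over SVC, just past the limit, and 8.64 in MWA over SVC, against 3.50 and 10.04. With the median of the probes, Rarb in SPA over SVC was -2.17 as a bound. With the probe of largest ratio, Aldh1a3 in MWA over SVC was -2.68 as a bound. Over all genes, normexp left 30 higher and 15 lower in SPA over SVC against 73 and 80, 755 and 457 in MWA over SPA against 1318 and 957, and 777 and 437 in MWA over SVC against 1349 and 935, and no filter gave 287 and 159 in SPA over SVC. Requiring both arrays well above background leaves Crabp1 without a ratio in both comparisons with MWA. No replicate could be left out, because each fraction has 1 array. No paired analysis was possible because each fraction has 1 array. Signal over background limits Rbp7 in SVC, Crabp1 in MWA, Rarb in SPA and the dimmer probes, and the spread between animals or cultures is not known.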
